A study of Mus musculus with 8 samples.

Results

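Cldn13, Apol11b, Slfn14, Tspo2, Ypel4 and Slc38a5 are 6 erythroid genes that are seldom used as red cell markers, among the 13305 genes counted in whole bone marrow (BM) of leukemic mice. They were chosen by their high loadings on the first principal component of the same 8 mice that are described here. Their levels and their changes between genotypes are therefore given as a description, without a test. Every mouse was C57BL/6N and carried Mx1-Cre, 1 lost allele of Dnmt3a and Flt3ITD on both alleles, the combination that gives rise to acute myeloid leukemia (AML) in this model. The groups differed in Gab2, a docking protein downstream of receptor tyrosine kinases. It was intact in 3 mice (Gab2+/+, AML WT), lost from 1 allele in 2 mice (Gab2+/-, AML HET) and lost from both alleles in 3 mice (Gab2-/-, AML KO). Mx1-Cre is driven by an interferon-inducible promoter, the Gab2 knockout is present in every cell of the animal, and no non-leukemic BM is among the samples. According to the paper, Cre was expressed spontaneously, and the mice were not given pIpC, the compound that induces it. The age of the mice at RNA sampling is not given in the sources used here, and neither is whether red cells were lysed before RNA extraction.

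In the last divisions of red cell formation, erythroblasts fill with hemoglobin, rebuild their membrane around a spectrin skeleton and finally expel the nucleus. Late erythroid genes are switched on together in this phase by GATA1, its partner TAL1 and the factor KLF1, and their transcripts persist into the reticulocyte. In leukemic BM, red cell precursors are among the normal cells that blasts displace. Besides the globins and the blood group proteins, such precursors express genes whose roles are less well known, to which these 6 belong.

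Libraries held 28009258 to 39266815 counts, and levels are given in CPM, counts scaled to library size with TMM. The mean of Gab2 itself was 74.7 ± 17.0 CPM in the 3 AML WT mice (± SD), 53.3 ± 3.57 in the 2 AML HET mice and 40.8 ± 6.15 in the 3 AML KO mice, with a log2 fold change of −0.87 for AML KO against AML WT (standard error 0.18), and adjusted p = 0.0420 in the quasi-likelihood test of edgeR. This call held in 2 of the 8 fits that each left out a mouse, and the adjusted p reached 0.159 without the third AML KO mouse. The reads left in AML KO cannot be placed on exons from counts per gene. The 8 erythroid markers fixed for the check of the label (among them Hba-a1, Hbb-bs, Slc4a1, Alas2, Epor, Klf1 and Gata1) had counts in every mouse. Their summed level was 166 to 241 CPM in AML WT, 411 to 1493 in AML HET and 1106 to 3909 in AML KO BM. BM was sequenced in bulk, so fewer erythroid cells and less RNA per erythroid cell cannot be told apart in any value below.

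The first principal component held 55.4% of the variance of the 1331 genes with the largest median absolute deviation. Ypel4 had the second highest loading on it (0.0857), followed by Apol11b (0.0827), and Cldn13, Tspo2, Slfn14 and Slc38a5 took ranks 5, 6, 7 and 8. The lowest loading among the 6 was that of Slc38a5 (0.0754), and directly below it stood Slc4a1 (0.0753), the anion exchanger of the red cell. Rps13-ps1 (0.120) stood above all 6, and Prss34 (0.0816) at rank 4 stood between Apol11b and Cldn13. With every gene scaled to unit variance, the 6 genes stood at ranks 19 (Tspo2) to 187 (Slfn14), so that their place near the top depends on that choice.

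Cldn13, Slc38a5 and Tspo2 encode membrane proteins. Cldn13 is a rodent member of the claudins, the family that seals tight junctions in epithelia, and is made by erythroid cells. The gene (ENSMUSG00000008843) lies on the minus strand at chr5:134914249-134915526 of GRCm38. Its level was 0.320, 0.474 and 0.674 CPM in the AML WT mice, 2.38 and 8.89 in the AML HET mice and 20.2, 4.77 and 6.51 in the AML KO mice. Each AML WT mouse was far below every other mouse, and the second AML HET mouse lay above 2 of the 3 AML KO mice. On average, Cldn13 stood at 0.489 ± 0.177 CPM over AML WT mice (SD, n = 3), at 5.64 ± 4.60 over AML HET mice (SD, n = 2) and at 10.5 ± 8.46 over AML KO mice (SD, n = 3). The log2 fold change was 4.43 for AML KO against AML WT (standard error 0.72), 3.54 for AML HET against AML WT (0.74) and 0.89 for AML KO against AML HET (0.68). Without the first AML KO mouse, which carried the most Cldn13, the log2 fold change against AML WT was 3.54.

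Slc38a5 (ENSMUSG00000031170, plus strand, chrX:8271133-8280179) encodes SNAT5, a transporter that carries glutamine and other neutral amino acids across the plasma membrane. It had 0.148, 0.190 and 0.367 CPM in AML WT, 0.736 and 4.17 in AML HET and 7.55, 1.67 and 3.36 in AML KO mice. The AML WT values rest on 6, 6 and 12 counts. Both AML HET mice were above all AML WT mice, but they differed more from each other than the AML WT mice did. Slc38a5 averaged 0.235 ± 0.117 CPM (SD, n = 3) in AML WT mice, 2.46 ± 2.43 (SD, n = 2) in AML HET mice and 4.20 ± 3.03 (SD, n = 3) in AML KO mice. Its log2 fold change against AML WT was 4.16 in AML KO (standard error 0.80) and 3.39 in AML HET (0.84).

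Tspo2 (ENSMUSG00000023995, minus strand, chr17:48447907-48451522) is the erythroid paralog of Tspo, the translocator protein that binds cholesterol in the outer mitochondrial membrane. Its level was 0.295, 0.474 and 0.520 CPM in AML WT, 1.44 and 6.28 in AML HET and 15.6, 3.75 and 6.75 in AML KO mice. The order of the 8 mice was close to that of Slc38a5, with AML WT mice at the bottom, the first AML HET mouse next and the first AML KO mouse at the top. AML WT mice averaged 0.430 ± 0.119 CPM (SD, n = 3), AML HET mice 3.86 ± 3.42 (SD, n = 2) and AML KO mice 8.70 ± 6.16 (SD, n = 3). The log2 fold change was 4.34 for AML KO against AML WT (standard error 0.70) and 3.17 for AML HET against AML WT (0.73).

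Ypel4 and Slfn14 act inside the cell. Ypel4 (ENSMUSG00000034059, plus strand, chr2:84734058-84738655) belongs to the small yippee-like family and is needed for an intact red cell membrane in mice. Its level was 0.0246, 0.506 and 0.551 CPM in AML WT, 1.47 and 6.18 in AML HET and 11.0, 2.88 and 5.45 in AML KO mice. The first AML WT mouse had a single Ypel4 count (exact 95% Poisson interval 0.0253 to 5.57 counts, which covers counting error only), against 16 and 18 in the other AML WT mice. This 1 library widens the spread of Ypel4 in AML WT, at 0.360 ± 0.292 CPM (SD, n = 3). AML HET BM had 3.83 ± 3.33 CPM (SD, n = 2) and AML KO BM 6.44 ± 4.15 CPM (SD, n = 3). The log2 fold change of 4.20 for AML KO against AML WT had the largest standard error of the 6 genes (0.86).

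Slfn14 (ENSMUSG00000082101, minus strand, chr11:83275110-83286726) encodes an endoribonuclease that associates with ribosomes. Inherited variants of it cause a platelet disorder in people and a red cell defect in a mouse mutant. It had 0.148, 0.126 and 0.367 CPM in AML WT, 1.75 and 4.49 in AML HET and 5.85, 3.13 and 4.13 in AML KO mice. Of the 6 genes, Slfn14 differed least between AML HET and AML KO BM, with means of 3.12 ± 1.94 CPM (SD, n = 2) and 4.37 ± 1.38 CPM (SD, n = 3), and only 0.214 ± 0.133 CPM in AML WT (SD, n = 3). Its log2 fold change was 4.35 for AML KO against AML WT (standard error 0.54), 3.86 for AML HET against AML WT (0.56) and 0.48 for AML KO against AML HET (0.48). The AML WT mice had 6, 4 and 12 Slfn14 counts, and without the third of them the first of these values was 4.95.

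Apol11b (ENSMUSG00000091694, minus strand, chr15:77633946-77643286) belongs to the apolipoprotein L genes, whose best known human member kills trypanosomes. Little is known of what this mouse gene does. Its level was 0.443, 1.26 and 0.827 CPM in AML WT, 2.35 and 8.28 in AML HET and 27.2, 12.7 and 13.6 in AML KO mice. This was the gene of the 6 in which every AML KO mouse lay above both AML HET mice. The mean was 0.845 ± 0.411 CPM over AML WT mice (SD, n = 3), 5.32 ± 4.20 over AML HET mice (SD, n = 2) and 17.8 ± 8.12 over AML KO mice (SD, n = 3). The log2 fold change was 4.41 for AML KO against AML WT (standard error 0.58), 2.67 for AML HET against AML WT (0.59) and 1.74 for AML KO against AML HET (0.57).

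The 250 bases before the gene start were read for Apol11b and Slfn14, since their windows hold GATA motifs, the letters to which GATA1 binds. They come from RefSeq (GRCm38.p6) and lie at chr15:77643287-77643536 and chr11:83286727-83286976, both on the minus strand. Sequences run 5′ to 3′ along the gene, and capitals mark matches on either strand to the letters AGATAA, also with T as the first or G as the last letter, and to TGANTCA, the motif of NF-E2 and AP-1.
Apol11b: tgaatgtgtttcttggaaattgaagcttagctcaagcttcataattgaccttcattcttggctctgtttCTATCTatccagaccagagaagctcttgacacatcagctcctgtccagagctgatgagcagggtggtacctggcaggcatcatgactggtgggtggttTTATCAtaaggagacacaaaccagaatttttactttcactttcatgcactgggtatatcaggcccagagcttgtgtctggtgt
Slfn14: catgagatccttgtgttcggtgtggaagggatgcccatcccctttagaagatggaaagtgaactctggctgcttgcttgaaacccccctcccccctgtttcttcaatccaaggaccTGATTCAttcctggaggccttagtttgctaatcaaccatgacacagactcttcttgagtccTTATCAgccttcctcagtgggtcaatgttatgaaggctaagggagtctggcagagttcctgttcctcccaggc
The Apol11b window holds 2 GATA matches, 181 and 83 bases before the start, and that of Slfn14 holds 1 at 73 bases and a TGANTCA match at 134 bases. RefSeq windows were found for 5 of the 6 genes, all but Cldn13, and the other 3 hold no GATA match. These windows end at the RefSeq start, and by the GENCODE gene start their last 21 (Tspo2), 146 (Ypel4) and 248 bases (Slc38a5) lie within the gene. Of all 32851 windows in the table, 26.5% hold at least 1 GATA match and 6.75% a TGANTCA match, which was also found for Ypel4. CAGNTG, the letters bound by TAL1 and its relatives, is in the Ypel4 and Slc38a5 windows and in 44.8% of all windows. CCNCNCCC, which covers the sites of KLF1, is in 4 of the 5 windows (all but that of Apol11b) and in 45.9% of all windows. No match of one motif overlapped that of another, and such matches are letters only, not evidence of binding.

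**Figure D1:**
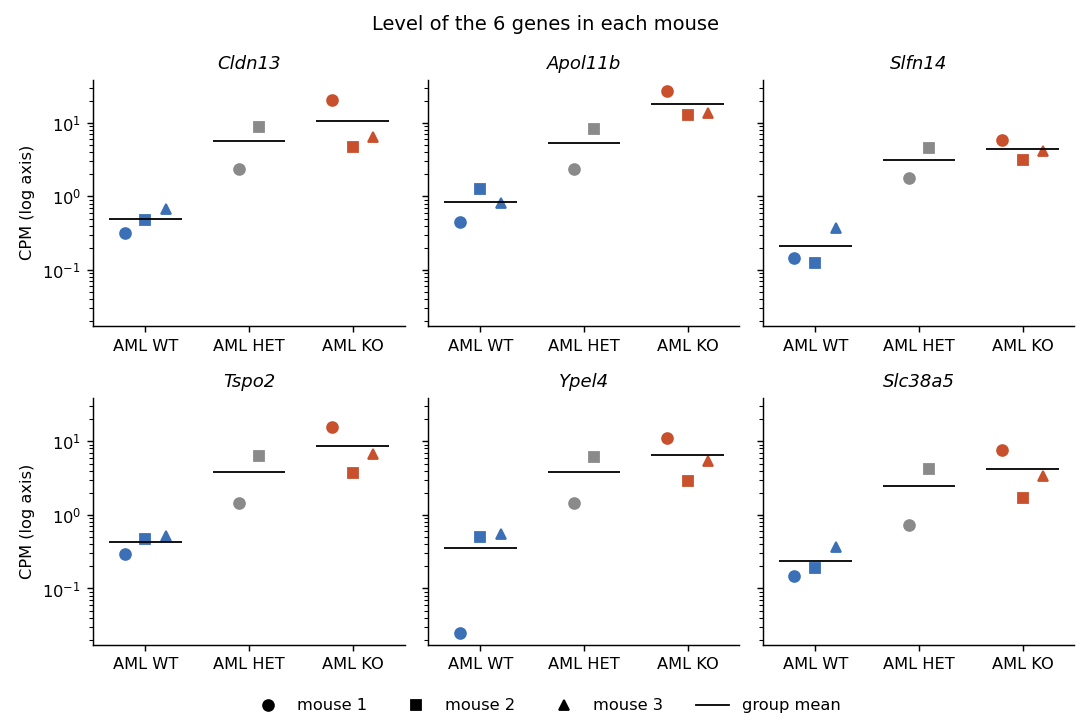
Level of each of the 6 genes in CPM on a log axis, with 1 point per mouse, its shape giving the mouse number within the group, and a line at the group mean. All AML HET and AML KO mice lie above all AML WT mice at each gene, the first AML KO mouse is the highest at each, and the lowest point is Ypel4 in the first AML WT mouse at 0.0246 CPM.

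Read across the genes, the mice kept nearly the same order. The first AML KO mouse had the highest level of all 6 genes, and the first AML HET mouse took rank 5 of the 8 mice at all 6. The second AML HET mouse was second at 4 genes and the third AML KO mouse at Apol11b and Tspo2. Every AML KO mouse was above every AML WT mouse at 6 of 6 genes, a pattern shown by 12.3% of all genes, and every AML HET mouse was above every AML WT mouse at 6 of 6, against 9.53% of all genes. Every AML KO mouse was above every AML HET mouse at 1 of 6 genes, beside 13.2% of all genes. The second AML HET mouse was above the second AML KO mouse at 5 genes and above the third at 4. The choice by the principal component used all 8 mice. On it the AML WT mice scored −31.0 to −21.0, the AML HET mice −7.97 and 7.76, and the first AML KO mouse highest (40.1). That choice therefore favours the shared order of the mice and both counts against AML WT, and nothing is read from the counts.

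The 6 log2 fold changes for AML KO against AML WT fell in a narrow band, from 4.16 (Slc38a5) to 4.43 (Cldn13), with a median of 4.34, while the median of all genes was −0.02. In fold terms, Cldn13 was 21.5 times and Slc38a5 17.9 times as high in AML KO as in AML WT BM. Among all genes ordered by this fold change, the 6 took ranks 4 to 11, with Cldn13 first of them, then Apol11b, Slfn14, Tspo2, Ypel4 and Slc38a5. The band is narrower than any of the standard errors, which ran from 0.54 to 0.86. These errors are those of each gene alone, and the 6 share the same mice, so they do not measure differences between genes. The order among the 6 was not tested. Their choice for high loadings favours values close to each other, so nothing is read from the narrow band. The median was 3.42 for AML HET against AML WT and 0.83 for AML KO against AML HET. These comparisons share mice, and all were used by the choice of the genes.

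On the log2 scale, AML HET BM stood most of the way from AML WT to AML KO at each gene. Set at 0 for AML WT and 1 for AML KO, AML HET was at 0.889 for Slfn14, 0.822 for Ypel4, 0.815 for Slc38a5 and 0.798 for Cldn13. Tspo2 was at 0.731 and Apol11b, the gene with the lowest value, at 0.606. The 2 AML HET mice differed widely at every gene, from 2.38 against 8.89 CPM for Cldn13 to 0.736 against 4.17 CPM for Slc38a5, so these positions rest on mice that are far apart.

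No test is read for the 6 genes, whose choice used all 8 mice. Their log2 fold changes for AML KO against AML WT stayed above 0 with each mouse left out, and the lowest value was 3.43, for Slc38a5. A filter of at least 10 counts in every mouse removed Slfn14, Ypel4 and Slc38a5, whose AML WT libraries hold fewer.

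Counts per length (RPKM over the merged exons of GENCODE M21) allow the 6 genes to be compared with each other. In AML KO BM, Cldn13 was at 9.84 ± 7.93 RPKM and Apol11b at 7.23 ± 3.30 (SD, n = 3), which is the 63.6th and the 55.5th percentile of all genes measured. Tspo2 (2.70 ± 1.91), Ypel4 (2.46 ± 1.59), Slc38a5 (1.87 ± 1.35) and Slfn14 (1.18 ± 0.372 RPKM) followed, at the 32.8th percentile and below. Apol11b was above Tspo2 in each of the 8 mice, and the lowest AML KO mouse of Apol11b (5.14 RPKM) was above the highest of Tspo2 (4.84 RPKM). The other neighbours in this order overlapped over the AML KO mice, although Tspo2 was above Ypel4 and Ypel4 above Slc38a5 within each of these 3 mice. The merged exons of Tspo2 span 3225 bases, and over its mean protein-coding transcript length (714.5 bases), a choice made after the values were seen, Tspo2 was at 12.2 RPKM, ahead of Cldn13. In AML WT BM the same 6 genes lay between the 0.369th (Slfn14) and the 9.17th percentile (Cldn13). For comparison in AML KO BM, Slc4a1 was at 25.1, Klf1 at 6.37 and Gata1 at 5.01 RPKM.

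Over all genes, 2.09% passed edgeR's test (an adjusted p under 0.05) for AML KO against AML WT, and 1.77% passed as higher in AML KO. Of 62 listed relatives in the families of the 6 genes, 29 were measured, and for AML KO against AML WT 3 of them rose, none fell and 26 did not pass the test, with a median log2 fold change of −0.22 (at an unadjusted p under 0.05 there were 11, 4 of them lower, and DESeq2 called 5). All 3 that rose are listed here, and 2 of them are neighbours of Apol11b in the Apol cluster of chromosome 15. Apol8, 104.5 kb away, had 0.246, 0.601 and 0.367 CPM in AML WT, 1.09 and 3.63 in AML HET and 6.80, 2.69 and 3.71 in AML KO mice. Apol11a, 115.9 kb away, had 2, 4 and 0 counts in AML WT, 1 and 7 in AML HET and 37, 23 and 32 in AML KO mice. At both genes the AML KO mice lay above the AML WT mice, and for Apol11a they lay above the AML HET mice too. The log2 fold change was 3.45 for Apol8 (standard error 0.58) and 4.03 for Apol11a (0.74), with adjusted p = 0.017 and adjusted p = 0.024 in edgeR's quasi-likelihood test. With 1 mouse left out, Apol8 still passed in 5 of 8 fits and Apol11a in 4 of 8, and the highest adjusted p was 0.0694 (Apol8 without the second AML WT mouse) and 0.0889 (Apol11a without the first).

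Apol11a and Apol11b are close copies, and their counts are uncertain. Their coding sequences are 93.5% identical, and 388 of the 2555 words of 50 bases in Apol11b transcripts (15.2%) also occur in Apol10a, Apol10b or Apol11a, so reads could be split between these genes. Apol8 is 58.6% identical to Apol11b. The closer neighbours in the cluster did not pass the test, Apol7e at 55.6 kb with a log2 fold change of 0.39 (adjusted p = 0.606, edgeR) and Apol7c at 100.6 kb with −2.41 (adjusted p = 0.225). Apol7c had 0.369, 1.26 and 5.85 CPM in AML WT mice and 0.556, 0.546 and 0.295 CPM in AML KO mice. It was called lower by DESeq2, but its value rests on the third AML WT mouse, and in edgeR the log2 fold change was −0.80 without it. Slc38a5 shared 2 of 2221 words with Btbd10, and the other 4 genes shared none with any gene.

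Slfn14 stands at one end of the Slfn cluster on chromosome 11, where 8 relatives were measured, 60.0 to 310.3 kb away, and none of the 8 passed the test in edgeR. At an unadjusted p under 0.05 there were 2, both lower in AML KO, and DESeq2 called 1. The median of the 8 was −0.67, opposite in sign to Slfn14. The 2 with the largest differences were Slfn5, at a log2 fold change of −1.51 (adjusted p = 0.206, edgeR), and Slfn3, at −1.08 (adjusted p = 0.167, called lower by DESeq2). These genes are best known from T cells and macrophages, where they restrain proliferation and respond to interferon.

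Of the claudins, 6 of 26 listed genes were measured besides Cldn13. Cldn15, a channel-forming claudin of the gut, rose by 0.76 on the log2 scale (adjusted p = 0.0415, edgeR), and it passed in 0 of the 8 fits that left out a mouse. The other 5 did not pass, and their values ran from −0.33 (Cldnd1) to 0.96 (Cldn5). Tspo, expressed in most cells, was at a log2 fold change of 0.25 (adjusted p = 0.423, edgeR). All 4 other Ypel genes were measured and none passed in edgeR or in DESeq2 (2 at an unadjusted p under 0.05), the largest values being those of Ypel1 (0.72) and Ypel3 (0.39). All 6 measured Slc38 transporters had values below 0, from −0.20 to −0.42 (Slc38a1), also with upper-quartile scaling and DESeq2, and 0 passed in edgeR, DESeq2 or limma-voom or at an unadjusted p under 0.05.

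**Figure D2:**
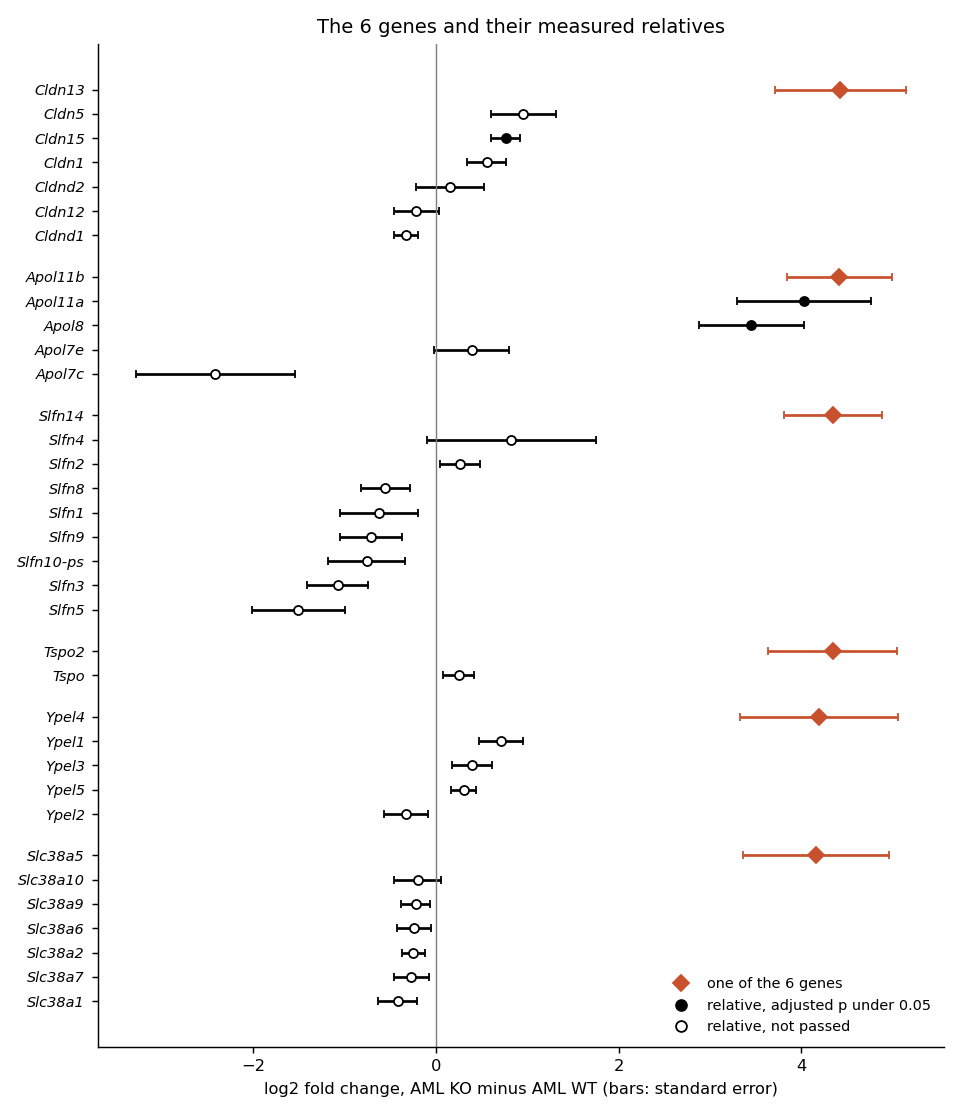
Log2 fold change (AML KO over AML WT) of the 6 genes (diamonds) and of their 29 measured relatives (circles, filled where the adjusted p was under 0.05), with bars for the standard error. The 6 genes lie between 4.16 and 4.43, and of the relatives only Apol11a (4.03) and Apol8 (3.45) come near them.

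The nearest measured gene on each side of the 6 was taken, 12 in all, at 3.4 kb (Unc5cl, from Tspo2) to 612.2 kb (B630019K06Rik, from Slc38a5), and 0 passed the test in edgeR (1, Apol7c, at an unadjusted p under 0.05 and in DESeq2). Their log2 fold changes ran from −2.41 (Apol7c) to 0.41 (Oard1), with a median of 0.09, and Apol7c was at −0.80 without the third AML WT mouse. Unc5cl was at 0.09, AA465934 lies 5.0 kb from Slfn14 and was at 0.33, and Clp1 lies 6.7 kb from Ypel4 and was at 0.07. None of the 6 genes overlaps another annotated gene, so strand, which is not given for the counting, cannot mix them with a partner.

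The better known genes of red cell formation were set beside the 6 in 5 lists with 61 measured genes. For AML KO against AML WT, 30 of the 61 rose and none fell (43 were higher and 0 lower at an unadjusted p under 0.05), and their median log2 fold change was 1.24. All genes from the 5th to the 95th percentile lay between −0.66 and 0.79. Counts of genes that rose depended on single mice, with 4 without the first AML WT mouse, 1 without the second, 15 without the first AML KO mouse and 14 without the third.

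The lists differed in how close they came to the 6 genes. Of 18 genes of the red cell membrane and its skeleton, 13 rose and 5 did not pass, and the median was 3.69. Epb42, which tethers the anion exchanger to the skeleton, was at 3.92 (adjusted p = 0.0156, edgeR), and Rhag, a Rhesus-associated protein, was at 3.91 (adjusted p = 0.0163, edgeR). Of 5 measured hemoglobin genes, 4 rose, led by Hba-a2 (3.80), and the median was 3.51. Hbb-bt had the smallest value, 2.28, and did not pass (adjusted p = 0.0538, edgeR). Car1, a carbonic anhydrase of the red cell, came closest to the 6 genes of all 61 with 4.11 (adjusted p = 0.0186, edgeR). That no listed gene reached the 6 is favoured by their choice for high loadings, and nothing is read from it.

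The medians of the other lists were lower, and the cause of this was not tested. Of 14 genes of late maturation, 5 rose and the median was 0.64, with Trim10, a RING finger protein of erythroid maturation, at 3.60. Bnip3l, which removes mitochondria from reticulocytes and is made in many tissues, was at 0.02 (adjusted p = 0.950, edgeR). Trim58, in the same list, was at 0.23 and did not pass (adjusted p = 0.728, edgeR). Of 13 regulators, 7 rose and the median was 1.18, with Gata1 at 3.54, Klf1 at 3.48 and Epor, the erythropoietin receptor, at 2.98. Of 11 enzymes and transporters of heme synthesis, 1 rose, the erythroid enzyme Alas2 (2.99), and the median was 0.44. Alad (1.17) and Cpox (0.19) did not pass, of which DESeq2 called Alad.

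**Figure D3:**
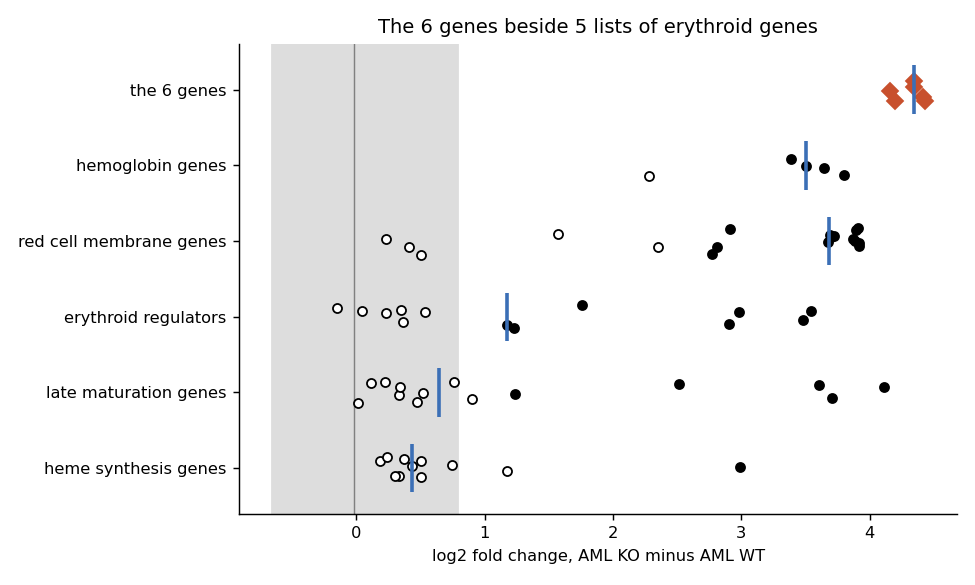
Log2 fold change (AML KO over AML WT) of the 6 genes (diamonds) and of the genes in 5 erythroid lists (circles, filled where the adjusted p was under 0.05), with a blue bar at each median and grey for the 5th to 95th percentile of all genes (−0.66 to 0.79). The 6 genes lie to the right of every listed gene, a place favoured by their choice for high loadings. The nearest listed gene is Car1 at 4.11, and the heme synthesis genes mostly lie within the grey range.

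Much of what the 6 genes show over the mice is also shown by the erythroid markers. The mean log2 CPM of the 8 markers ran over 4.64 units, from 1.90 in the first AML WT mouse to 6.54 in the first AML KO mouse. The difference between a gene and this mean, both as log2 CPM of the same mouse, had a smaller range. Tspo2 ranged over 5.45 units in level and over 0.896 in its difference from the markers. For Slc38a5 these ranges were 5.18 and 1.18, and for Cldn13 5.73 and 1.27. These differences still shifted between groups for Tspo2, which averaged −3.39 over AML WT, −2.92 over AML HET and −2.76 over AML KO mice, and for Cldn13, at −3.25, −2.32 and −2.54. At both genes all AML WT mice were farther below the markers than any other mouse. Slc38a5 averaged −4.16, −3.67 and −3.82, and its groups overlapped. The 6 genes were chosen for high loadings, and no marker stood above them on the first principal component. That choice favours a rise of the difference from AML WT to AML KO, here and in the next paragraph, so nothing is read from it.

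The other 3 genes had wider ranges. The difference of Apol11b from the markers ranged over 1.51 units and averaged −2.59 over AML WT mice, −2.38 over AML HET mice and −1.58 over AML KO mice. All 3 AML KO mice, at −1.77, −1.38 and −1.60, were closer to the markers than any other mouse. Slfn14 had a range of 2.21 and averages of −4.30, −3.02 and −3.55 in the same order, with its highest value, −2.77, in the first AML HET mouse. Ypel4 had a range of 2.60 units, set by the first AML WT mouse with its single count (−5.43), and the other 7 mice lay between −3.49 and −2.82. A smaller prior count (0.5 in place of 2), chosen after the values were seen, widened the ranges to between 1.00 (Tspo2) and 3.65 (Ypel4).

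**Figure D4:**
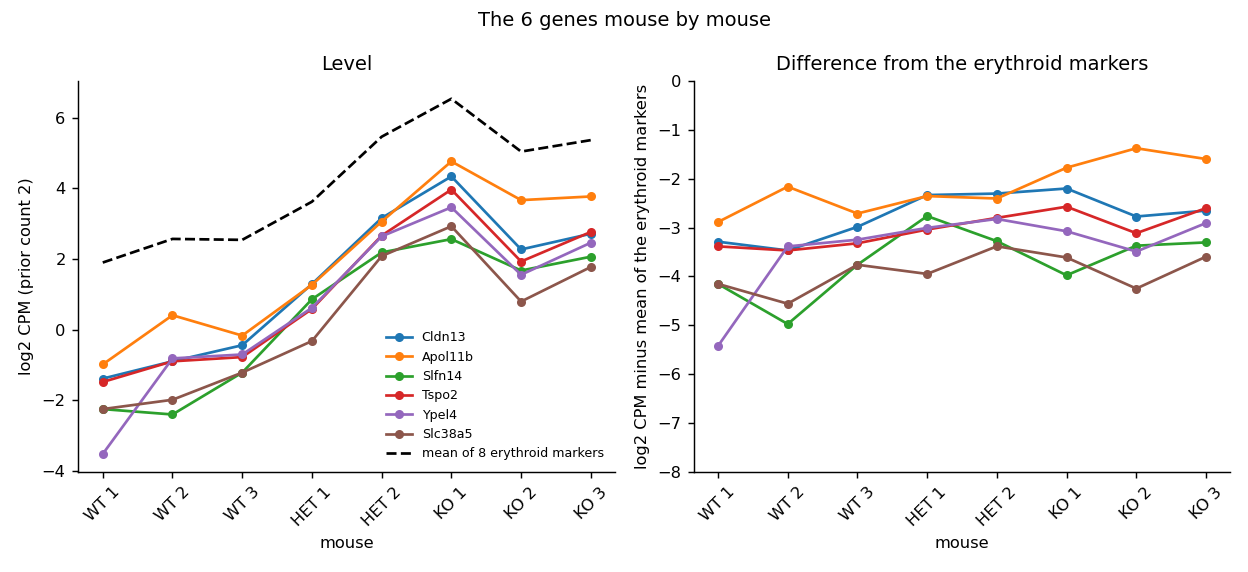
Left, log2 CPM of the 6 genes in each of the 8 mice and the mean of the 8 erythroid markers (dashed). Right, each gene minus that mean, in log2 units; lines join the values of 1 gene and the order of mice within a group carries no meaning. Levels range over 4.97 to 6.99 log2 units, and differences from the markers over 0.896 (Tspo2) to 2.60 (Ypel4).

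Over the 8 mice, the log2 CPM of any pair among the 6 genes had a Pearson r of 0.930 (Apol11b and Slfn14) to 0.993 (Cldn13 and Tspo2). These values share libraries, and the groups differ strongly, so they serve only to name the most similar genes outside the 6. Cldn13 was close to Mylk3, a myosin light chain kinase (r = 0.998), and to Rhd, a Rhesus protein (0.996). Tspo2 was closest to Rhd (0.996) and to the alpha globin genes Hba-a2 (0.994) and Hba-a1 (0.993). Slc38a5 was closest to Paqr9 (0.996), Kel, a blood group protease (0.995), and Hba-a2 (0.994). Apol11b had other partners, Gata1 (0.998), Sox6, an erythroid transcription factor (0.994), and Mfsd2b, which exports sphingosine-1-phosphate from red cells and platelets (0.992).

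The likeness of Apol11b and Gata1 can be followed in their levels. Gata1 had 0.639, 1.55 and 0.980 CPM in AML WT, 2.35 and 7.17 in AML HET and 19.2, 8.08 and 9.34 in AML KO mice. As for Apol11b, the second AML WT mouse was the highest of its group and every AML KO mouse was above both AML HET mice. Rhd, like Cldn13, had the second AML HET mouse above both the second and the third AML KO mouse, with 0.688, 1.14 and 1.35 CPM in AML WT, 3.19 and 14.7 in AML HET and 27.6, 8.55 and 10.8 in AML KO mice.

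Slfn14 and Ypel4 had looser partners. Slfn14 was closest to Epb42 (0.984), to the adaptor gene Shf (0.975) and to Mylk3 (0.974), and Ypel4 to Ermap (0.988), Trim10 (0.987) and Dmtn (0.985), the last a protein of the membrane skeleton. Shf moved on another scale than the rest. It had 1.87 to 2.76 CPM in AML WT and 3.68 to 4.41 CPM in AML KO mice, with a log2 fold change of 0.86 that did not pass (adjusted p = 0.127, edgeR).

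Some markers of other blood cells were also higher in AML KO than in AML WT BM, where 1.77% of all genes passed as higher. Of 13 markers of megakaryocytes and platelets, 12 rose between AML WT and AML KO BM, and their summed level was 97.5 to 133 CPM in AML WT, 137 to 181 in AML HET and 360 to 491 in AML KO mice. Of 12 markers of mature neutrophils, 6 rose, with summed levels of 1422 to 4838, 5552 to 6240 and 10595 to 17292 CPM. Of 6 markers of eosinophils, basophils and mast cells, 4 rose, from 43.6 to 49.3 CPM in AML WT through 70.7 to 75.4 in AML HET to 104 to 173 in AML KO BM. None of the 8 monocyte, 9 B cell and 9 T and NK cell markers passed in edgeR, DESeq2 or limma-voom (2, 0 and 2 at an unadjusted p under 0.05 in edgeR). How the counts of markers that rose depend on single mice is not reported here. No marker gene had a count of 0 in any mouse. The part of these cells in the levels of the 6 genes was not tested.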

How the data were processed

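RNA of whole BM from 8 mice (1 library each; 3 AML WT, 2 AML HET, 3 AML KO) was sequenced by the authors, who deposited raw counts per gene. Per the submitters' processing notes, Trimmomatic 0.36, STAR 2.5.2b and mm10 were used. The counting tool, its annotation and strand setting are not given in the sources used here. Of 13305 Ensembl identifiers, 13266 were found in GENCODE M21 (GRCm38).

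The main test was that of edgeR 4.0.16 in R 4.3.3 (TMM, robust quasi-likelihood F test, all 8 mice, genotype as the only term, Benjamini-Hochberg adjustment over all genes, threshold 0.05). filterByExpr removed no gene. Standard errors were derived from F. Log2 CPM used a prior count of 2, and principal components 10% of genes by median absolute deviation. In simulated counts of 13305 genes for AML KO against AML WT, 94 of 100 4-fold and 59 of 100 2-fold changes were found, with 7 unchanged genes called. A count of 0 allows up to 3 counts, or 0.109 CPM in the smallest scaled library. P-values set the difference between groups against the spread between mice, which was estimated from all 8 mice.

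The 6 genes and all lists were chosen with earlier results of these data known. Named were the 6 genes, relatives that passed or else the 2 of each family with the largest change, the 3 largest and the smallest change of each erythroid list, the 3 most similar genes of each member, the nearest measured gene on each side, and Gab2; some of these are not reported here. Cldn5, Cldnd1, Slc4a1, Hbb-bs, Trim58, Rps13-ps1 and Prss34 fall outside this rule and were named after their values were seen. Alternatives used DESeq2 1.42.0, limma-voom (limma 3.58.1), upper-quartile scaling, filters on low counts, a replicate block, the 2 groups alone and each mouse left out. The 250-base windows came from RefSeq. Python 3.11.15 with pandas 2.3.3 and matplotlib 3.10.9 drew the figures.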

Additional observations from a re-analysis of the deposited data

How the results depend on the processing

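The median log2 fold change of the 6 genes for AML KO against AML WT (4.34) kept its sign under each alternative run, from 3.59 to 4.65 with 1 mouse left out. The choice of the 6 genes by their loadings in these same mice favours this sign, so nothing is read from it. Genes with an adjusted p under 0.05 for AML KO against AML WT numbered 278, with 730 by DESeq2, 19 with the replicate block and 40 to 370 with 1 mouse left out. Between AML HET and AML WT there were 3, with 59 by DESeq2, 1 by limma-voom, 0 with the block, 5 in the mice of the 2 groups alone and 1 to 5 with 1 mouse left out. Between AML KO and AML HET there were 0 (780 at an unadjusted p under 0.05), with 77 by DESeq2, 3 in the mice of the 2 groups alone and 0 to 4 with 1 mouse left out. Of the erythroid lists 30 genes passed, 0 with the block and 1 to 29 with 1 mouse left out. Of the relatives 3 passed, 5 by DESeq2, 0 with the block and 0 to 2 with 1 mouse left out. The cause of these differences was not tested. Bnip3l ran from −0.042 to 0.093 with 1 mouse left out, below 0 without the second or the third AML WT mouse or the first AML KO mouse, and Clp1 from −0.038 to 0.12, below 0 without the first AML KO mouse. Of 44 tested genes named, calls were lost in 85 and gained in 2 of 352 pairs of gene and mouse left out. The labels number the mice within each group and do not say whether equal numbers pair them. Deviations of same-numbered AML WT and AML KO mice had r = −0.509, −0.109 and −0.131. No AML WT mouse correlated best with the AML KO mouse of its number. For same-numbered AML WT and AML HET mice r was 0.0761 and 0.289, and for AML HET and AML KO mice −0.138 and −0.0397. So few mice cannot settle whether the numbers pair them. Low AML WT counts limit the precision of Slfn14, Ypel4 and Slc38a5.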
